A study of Mus musculus with 31 samples.

Results

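Immediate early genes are switched on within minutes of injury, stretch, growth factors or cytokines, from transcription factors that already sit in the cell, and need no new protein to start. Many encode transcription factors themselves. Fos and Fosb pair with Jun and Junb to form AP-1, Egr1 is a zinc finger factor, Nr4a1 is an orphan nuclear receptor, Atf3 is a CREB/ATF factor induced by stress, Myc drives ribosome production and growth, Cebpb serves inflammatory and myeloid gene programs, and Ier2 is a small nuclear regulator. In muscle these genes respond to damage and contraction, and most of their transcripts are short-lived, so that their level follows the hours before tissue collection.

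The values below are the read counts of these 10 genes, of 22609 genes in the files, in bulk RNA-seq libraries of masseter muscle (MM) from 31 male C57BL/6J mice of 2 to 4 months, 1 library per mouse. The genes were taken as a list of names, and all 10 passed the filter on low counts (at least 10 counts in at least 3 libraries) in every comparison. CFA mice received complete Freund's adjuvant mixed with PBS in the left MM and form groups of 3 at 1d and 5d, with 3 vehicle mice of the CFA experiment. Col mice received crude collagenase type 2, at 0.2U in groups of 4 labelled C_1C and C_RPC, or at 10U in groups of 4, 3 and 4 labelled 2d, 6d and 12d, and 3 mice labelled Contr were taken as the vehicle of the Col experiment, although their label does not name it. The days are those of the labels. The study's text gives 1d and 14d for the first and the last 10U group, labelled 2d and 12d. The labels do not say on which day each 0.2U group was collected. Injections were made under isoflurane and vehicle was PBS, so vehicle mice had also received a needle and anesthesia. An untreated group was not analysed here. Values are read counts scaled to TMM library size (CPM), with 1 value per mouse, and RPKM was used only where levels of different genes are compared.

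The libraries held 14843778 to 29076671 reads on genes (median 20834472), and the member with the fewest reads, Fosb, still had 8 to 512 counts per mouse. The summed level of 8 skeletal muscle markers (Ckm, Acta1, Ttn and others) was 31138 to 165862 CPM, and no marker was at 0. Other tissue varied between mice. Salivary gland markers summed to 11.2 CPM in 1 mouse at 6d after 10U Col and to 281734 CPM in 1 C_RPC mouse, and macrophage markers to 1322 to 2609 CPM at 6d against 139 to 455 CPM in the vehicle of Col. In bulk tissue, fewer cells of a type and less RNA per cell cannot be told apart. Reads that the counting program left as ambiguous made up 0.680 to 0.883% of counted reads in the 11 libraries of the 10U groups and 0.147 to 0.318% in the other 20, the vehicle of Col included. This difference in counting cannot be told apart from treatment where a 10U group is compared with vehicle, and it is shared by the 10U groups that are compared with each other.

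Promoter sequence was read from RefSeq (build GRCm38.p6) for the 7 members with an entry that could be printed, as the 250 bases before the transcription start. They are shown because the core letters of the cAMP response element, TGACG (or CGTCA on the other strand), occurred in 6 of the 7 windows, Jun being the exception. Over all 32851 RefSeq promoter windows of this length the letters occurred in 17.8%. The full palindrome TGACGTCA (1.55% of windows), the AP-1 site TGANTCA (6.75%) and the CArG box of serum response factor (1.47%) were in none of the 7 windows, which says nothing of sites elsewhere. Near matches were not searched, and the Jun window holds TGACATCA, which is close to the palindrome. Capitals mark each TGACG or CGTCA, and sequences run 5′ to 3′ on the strand of the gene. The windows of Fos (chr12:85473640-85473889 (plus strand)), Junb (chr8:84978749-84978998 (minus strand)), Atf3 (chr1:191183334-191183583 (minus strand)), Nr4a1 (chr15:101266596-101266845 (plus strand)) and Cebpb (chr2:167688665-167688914 (plus strand)) are those of the members with the largest changes or relations below, and Jun (chr4:95052223-95052472 (minus strand)) is shown as the window without the letters.
Fos: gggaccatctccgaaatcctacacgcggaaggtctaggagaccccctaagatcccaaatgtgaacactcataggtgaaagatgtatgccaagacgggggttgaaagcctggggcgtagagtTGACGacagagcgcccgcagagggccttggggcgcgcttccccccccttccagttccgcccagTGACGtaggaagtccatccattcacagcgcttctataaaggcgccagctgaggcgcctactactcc
Jun: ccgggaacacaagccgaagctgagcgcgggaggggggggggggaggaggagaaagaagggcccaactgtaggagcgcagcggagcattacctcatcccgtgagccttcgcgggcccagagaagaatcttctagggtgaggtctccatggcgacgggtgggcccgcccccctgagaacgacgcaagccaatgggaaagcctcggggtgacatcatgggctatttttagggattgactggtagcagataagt
Junb: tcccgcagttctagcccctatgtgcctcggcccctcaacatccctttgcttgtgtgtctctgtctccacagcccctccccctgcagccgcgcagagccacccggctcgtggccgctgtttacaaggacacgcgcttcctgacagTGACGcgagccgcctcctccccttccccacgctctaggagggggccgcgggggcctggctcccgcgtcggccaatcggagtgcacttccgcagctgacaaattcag
Atf3: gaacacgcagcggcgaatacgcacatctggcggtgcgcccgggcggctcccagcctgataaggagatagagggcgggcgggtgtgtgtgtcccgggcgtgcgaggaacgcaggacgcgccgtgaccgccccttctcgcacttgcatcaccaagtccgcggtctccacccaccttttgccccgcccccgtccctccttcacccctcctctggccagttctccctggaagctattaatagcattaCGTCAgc
Nr4a1: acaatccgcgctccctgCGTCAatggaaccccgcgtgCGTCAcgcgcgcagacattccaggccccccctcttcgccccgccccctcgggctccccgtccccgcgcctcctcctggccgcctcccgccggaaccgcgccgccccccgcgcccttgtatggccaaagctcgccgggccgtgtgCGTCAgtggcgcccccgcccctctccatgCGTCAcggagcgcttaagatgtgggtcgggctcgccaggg
Cebpb: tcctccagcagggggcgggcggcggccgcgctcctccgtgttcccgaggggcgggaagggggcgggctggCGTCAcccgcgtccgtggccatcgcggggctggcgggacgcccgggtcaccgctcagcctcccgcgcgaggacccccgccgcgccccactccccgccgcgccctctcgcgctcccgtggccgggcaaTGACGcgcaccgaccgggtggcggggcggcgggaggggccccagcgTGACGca
Nr4a1 held the letters 4 times, starting 233, 213, 69 and 40 bases before the start, and Cebpb 3 times, at 180, 53 and 7 bases. Fos held them at 129 and 66 bases and a TATAAA box at 33 bases, which 12.4% of windows contain. Nr4a1 also held a site of the Egr family (GCGNGGGCG, on the other strand) 60 bases before its start, as did Fosb at 50 bases, and 4.70% of all windows hold one.

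In vehicle-treated muscle the members were expressed at very different levels. Per length, the mean of the vehicle groups of CFA and Col was highest for Nr4a1 (60.4 and 151 RPKM) and Jun (57.0 and 42.0 RPKM), followed by Cebpb (18.2 and 17.6 RPKM), Junb (13.6 and 12.3 RPKM) and Ier2 (10.7 and 11.1 RPKM). Egr1, Fos, Myc and Atf3 lay between 2.78 and 11.3 RPKM in both groups, and Fosb was lowest with 0.377 and 1.58 RPKM. Between the vehicle groups no member passed the test (0 of 10 by edgeR's quasi-likelihood test with Benjamini-Hochberg adjustment, against 0.0426% of all genes, and 1 of 10 had an unadjusted p under 0.05). That member was Nr4a1. It had 187, 182 and 79.2 CPM in the vehicle of CFA and 339, 388 and 395 CPM in the vehicle of Col, groups that did not overlap (2.38% of all genes were apart in this direction), and DESeq2 called it lower in the former with an adjusted p of 0.00881. In this comparison DESeq2 called 12 of 14070 genes higher and 53 lower. The vehicle mice were not uniform. Contr mouse 3 stood above the others in Fosb (14.8 CPM, against 1.70 and 1.26 CPM), Fos (43.5 CPM, against 14.6 and 21.4 CPM) and Egr1 (61.3 CPM, against 24.0 and 14.4 CPM), but not in Jun (134 CPM, against 130 and 137 CPM). This mouse also had the highest neutrophil marker sum of its group, 883 CPM, against 271 and 10.4 CPM, and whether this bears on the members was not tested.

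**Figure D1:**
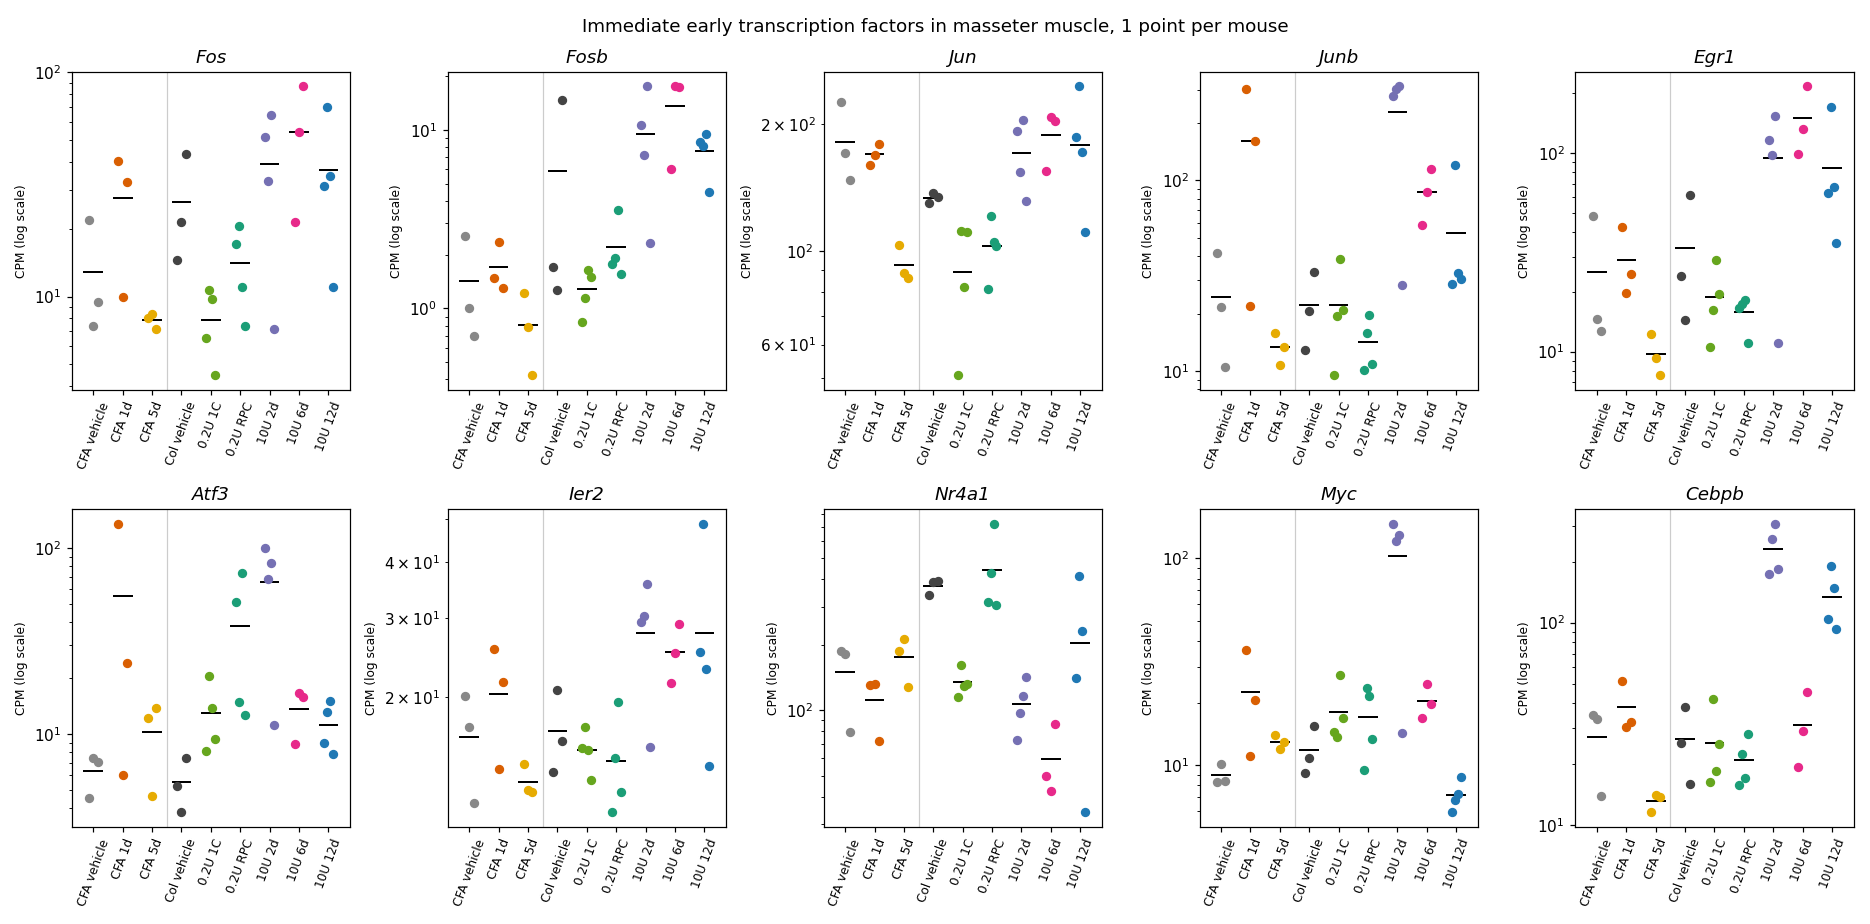
Level of each member (CPM, log scale) in 31 mice of 9 groups, with 1 point per mouse and a line at the group mean; the grey vertical line separates the CFA experiment (left) from the Col experiment (right). Junb, Atf3 and Myc each have 1 low mouse among the 4 at 2d after 10U Col, whereas Cebpb is high in all 4 of them.

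Whether CFA inflammation was accompanied by early gene transcripts was asked first. At 1d post-CFA no member passed the test (0 of 10, and 0% of 13944 genes tested by edgeR, while 588 genes and 3 members had an unadjusted p under 0.05, and DESeq2 called 0 members). Over all 13944 genes DESeq2 called 46 higher and 10 lower. The 3 members with an unadjusted p under 0.05 by edgeR were Junb, Atf3 and Myc, and their values split the group. Junb, an AP-1 subunit, measured 301, 22.1 and 162 CPM at 1d and 41.6, 21.7 and 10.5 CPM in vehicle, a log2 fold change of 2.72 ± 0.88 (SE, n = 3 against 3) with an adjusted p of 0.924 by edgeR. Mouse 1 and mouse 3 were thus above every vehicle mouse and mouse 2 lay among them. Atf3 showed the same split, with 136, 6.00 and 24.1 CPM against 4.52, 7.39 and 7.03 CPM (log2 fold change 3.09 ± 0.98). Myc had 36.1, 11.1 and 20.7 CPM against 8.32, 10.1 and 8.43 CPM and was the 1 member whose groups did not overlap, a pattern that 3.05% of all genes showed in that direction. Fos had 40.2, 9.96 and 32.5 CPM at 1d, with 21.9, 7.39 and 9.49 CPM in vehicle, so that mouse 2 was again the lowest of its group. Jun did not separate, with 160 to 180 CPM at 1d and 148 to 226 CPM in vehicle, and the 95% interval of its log2 fold change ran from -0.60 to 0.42. The summed level of 8 heat shock genes, a sign of cell stress or handling, was 1322 CPM in mouse 1 at 1d, 301 CPM in mouse 2 and 410 CPM in mouse 3, against 263 to 386 CPM in vehicle, and its part in the members' values was not tested.

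At 5d post-CFA the fitted change was downward for 7 of the 10 members, but Jun and Egr1 were the 2 whose mice all lay below vehicle, and again none passed the test (0 of 10, against 1.11% of 14026 genes by edgeR, with 4 members at an unadjusted p under 0.05). Jun came closest. It had 103, 89.0 and 86.3 CPM at 5d and 226, 171 and 148 CPM in vehicle, without overlap, and a log2 fold change of -0.92 ± 0.19 with an adjusted p of 0.0740. DESeq2 called 2 members, Jun (adjusted p 7.18e-05) and Cebpb (adjusted p 0.0469), both lower. Over all 14026 genes it called 716 higher and 183 lower. Myc was higher in all mice at 5d than in any vehicle mouse, and 6.89% of all genes were apart downward and 12.8% upward. The count depended on a vehicle mouse, since without vehicle mouse 3 of CFA edgeR called 4 members lower (Jun, Junb, Egr1 and Cebpb), against 15.6% of genes in either direction. That mouse had a neutrophil marker sum of 557 CPM, against 4.04 and 13.0 CPM in the other vehicle mice, and a salivary sum of 13418 CPM, against 103 and 109 CPM. All 3 mice at 5d carried 128188 to 160484 CPM of salivary markers, which were 71.5 to 9082 CPM at 1d, and this difference cannot be told apart from the day.

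The days after CFA were also compared directly. From 1d to 5d, 4 of the 10 members fell (Jun, Junb, Egr1 and Cebpb) and none rose, where 0.99% of 14046 genes fell and 5.84% were called in either direction, and the median log2 change was -1.26 for the members and 0.0043 for all genes tested. Junb fell by 3.55 ± 0.80 on the log2 scale, from 301, 22.1 and 162 CPM to 15.8, 10.7 and 13.3 CPM (adjusted p 0.0452 by edgeR). The low mouse at 1d still lay above all mice at 5d. Cebpb, which had 51.7, 30.5 and 32.4 CPM at 1d, was at 11.6, 14.1 and 13.8 CPM at 5d and fell by 1.49 ± 0.22 (adjusted p 0.00973). Egr1 fell by 1.52 ± 0.31 (adjusted p 0.0321) and Jun by 0.83 ± 0.17 (adjusted p 0.0291). Fos and Fosb also showed no overlap, as 12.1% of all genes did downward, and Fos changed by -1.77 ± 0.45 with an adjusted p of 0.0697. Without CFA mouse 2 at 1d, 8 members passed in the same direction, against 9.63% of genes, and Nr4a1 (128 to 213 CPM at 5d, 72.1 to 132 CPM at 1d) was the 1 member whose fitted change was upward. With each of the 6 mice removed in turn the count ran from 0 to 8 members, and it was 0 without mouse 1 or mouse 2 at 5d.

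Genes of the other early lists were tested between the same days. Of 10 further AP-1 and small Maf subunits, Maff (-1.93 ± 0.43) and Fosl2 (-0.92 ± 0.21) fell, and of 16 other serum and injury induced genes 3 fell, Cyr61, a secreted matrix-associated protein, Btg2, an antiproliferative factor, and Ctgf, a matrix-associated growth factor partner, with Cyr61 at -1.83 ± 0.18. The median log2 changes of these lists were -0.68 and -0.76. Of 18 feedback inhibitors, Zfp36, which degrades AU-rich transcripts, fell (-0.99 ± 0.21) and Dusp6, a phosphatase of ERK, rose (0.88 ± 0.19). Cebpd, the relative of Cebpb, fell by 2.37 ± 0.31 on the log2 scale and was the 1 of 4 tested relatives and partners that passed. The orphan receptor Nr4a2 rose by 1.89 ± 0.27, as did Asns, asparagine synthetase (3.22 ± 0.38), and Mycl1, a relative of Myc (1.89 ± 0.39). Over the other early lists 7 of 92 tested genes fell and 4 rose (12% in all). Of all 14046 genes, 139 fell (0.99%) and 681 rose (5.84% called in all), so the rises were near the share over all genes.

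After 0.2U Col no member passed the test in either group (0 of 10 for C_1C and 0 of 10 for C_RPC, with 0% of 14493 and 0% of 14269 genes called by edgeR). At an unadjusted p under 0.05 there were 4 members and 1819 genes for C_1C and 3 members and 1923 genes for C_RPC. Nr4a1 had the smallest adjusted p for C_1C. Its levels were 115, 161, 130 and 132 CPM, all below the 339, 388 and 395 CPM of vehicle, with a log2 fold change of -1.47 ± 0.17 and an adjusted p of 0.132 by edgeR. DESeq2 called this gene lower (adjusted p 1.15e-12) together with Fos (adjusted p 0.00632), whose 6.51, 10.7, 9.72 and 4.47 CPM were below the 14.6 to 43.5 CPM of vehicle, and 6.13% of all genes were apart downward. The C_RPC mice had 315, 430, 723 and 305 CPM of Nr4a1 and overlapped with vehicle. The difference between the 0.2U groups was not tested. Atf3 was above vehicle (5.27, 3.79 and 7.48 CPM) in every mouse of both groups, with 8.07, 20.4, 13.8 and 9.40 CPM in C_1C and 51.1, 14.9, 73.5 and 12.7 CPM in C_RPC, and for C_RPC DESeq2 called it higher (log2 fold change 2.80, adjusted p 0.000365), whereas edgeR gave 2.79 ± 0.69 with an adjusted p of 0.265. Groups apart upward were seen for 4.22% of all genes in C_1C and 4.79% in C_RPC. Over all genes DESeq2 called 360 higher and 159 lower of 14493 for C_1C. For C_RPC it called 189 higher and 254 lower of 14269.

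The highest group mean lay in a 10U group for every member except Nr4a1, which was highest in C_RPC. In every member the highest group overlapped with the next. For Jun the next was the vehicle of CFA (182 CPM, against 189 CPM at 6d). The share of all genes that are highest in a 10U group was not computed. At 2d after 10U Col, 3 of the 10 members passed the test, Cebpb and Atf3 upward and Nr4a1 downward, where edgeR called 1.14% of 14373 genes higher and 1.08% lower (2.22% in all). Cebpb, a factor of inflammatory and myeloid gene programs (a gene of 1 exon at chr2:167514415-167515918, mm9), had 174, 258, 308 and 183 CPM at 2d and 25.4, 38.2 and 16.0 CPM in vehicle, without overlap, as 13.4% of all genes were apart upward. Its log2 fold change was 3.10 ± 0.36 (8.55-fold, n = 4 against 3, adjusted p 0.0184). The macrophage marker sum was 660, 877, 1408 and 576 CPM in the same mice, above the 139 to 455 CPM of vehicle in each, with 1 of 9 markers called higher, and its part in the level of Cebpb was not tested. Tmem189, on the opposite strand, overlaps this gene in the annotation and had 47.1, 58.1, 57.9 and 20.3 CPM at 2d, with 23.4, 35.6 and 26.8 CPM in vehicle (log2 fold change 0.64 ± 0.35, adjusted p 0.231). The counting of the strand is not given in the sources used here. Reads of the overlapping stretch may therefore have been counted for either gene or left out as ambiguous. The share of ambiguous reads differed between the 10U libraries and vehicle, as given above. The library kit marked the strand. Jun and Egr1 overlap annotated opposite-strand genes too (BC042782 and Gm17507), which the files do not count.

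Atf3 (chr1:192994175-193007219, mm9) had 100, 68.2, 83.7 and 11.2 CPM at 2d, against 3.79 to 7.48 CPM in vehicle. The log2 fold change was 3.52 ± 0.71 (11.5-fold) with an adjusted p of 0.0497, at the edge of the threshold. Mouse 4 was far below the other mice, though above vehicle, and the gene passed in 1 of 7 fits with a mouse removed, the fit without mouse 4 (adjusted p 0.000588). Nr4a1 (chr15:101097277-101105223, mm9, 7 exons) went the other way, with 72.8, 97.6, 116 and 143 CPM against 339, 388 and 395 CPM, a log2 fold change of -1.84 ± 0.26 (adjusted p 0.0269). All 4 mice lay below vehicle, as 10.8% of all genes did, mouse 4 being the nearest to it. The level in 2d mice was within the range of the CFA vehicle group (79.2 to 187 CPM) except for mouse 1.

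Junb and Myc did not pass with all mice, and 1 mouse was far below the others in both. Junb (chr8:87500811-87502617, mm9) had 277, 302, 312 and 28.4 CPM at 2d against 12.9, 20.8 and 33.2 CPM in vehicle, a log2 fold change of 3.32 ± 0.80 with an adjusted p of 0.0577. Myc (chr15:61816946-61821929, mm9) had 148, 121, 130 and 14.3 CPM against 9.15, 10.8 and 15.5 CPM, with 3.08 ± 0.72 and an adjusted p of 0.0560. Mice 1 to 3 were above every vehicle mouse, and mouse 4 lay within the vehicle range in both genes. Fos (51.5, 32.7, 64.4 and 7.14 CPM), Egr1 (117, 97.2, 153 and 10.98 CPM) and Ier2 (29.4, 30.3, 35.9 and 15.5 CPM) had their lowest value in mouse 4 as well, and in Fos and Egr1 it was below all vehicle mice. The heat shock sum was 1048, 703 and 850 CPM in mice 1 to 3 and 271 CPM in mouse 4, against 253 to 294 CPM in vehicle. The skeletal muscle sum was 31245 to 37308 CPM in mice 1 to 3 and 59331 CPM in mouse 4, all below the 93299 to 135012 CPM of vehicle, and the part of these differences in the members' values was not tested. Cebpb, in contrast to the other raised genes, was as high in mouse 4 (183 CPM) as in mouse 1 (174 CPM).

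Mouse 4 was singled out after its low values in these members had been seen. Without it, 7 of the 10 members passed at 2d, 6 of them upward (Junb, Egr1, Atf3, Ier2, Myc and Cebpb) and Nr4a1 downward. The share called over all genes rose as well, from 2.22% to 36.3%, so the gain was not particular to the members. Myc then had a log2 fold change of 3.44 ± 0.24 (adjusted p 0.000453) and Junb of 3.69 ± 0.36 (adjusted p 0.000976). Fos, Fosb and Jun did not pass with or without this mouse, and Fos had 0.85 ± 0.44 without it. With all mice, the interval of the Fos change reached from -1.04 to 2.05, so that a fall or a rise of 2-fold could not be told from none. DESeq2 called 5 members on all mice, the 3 of edgeR with Junb and Myc. Over all genes it called 1687 higher and 1639 lower of 14373, far more than edgeR. Without Contr mouse 1, 2d mouse 1 or 2d mouse 2 edgeR called 0 members.

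**Figure D2:**
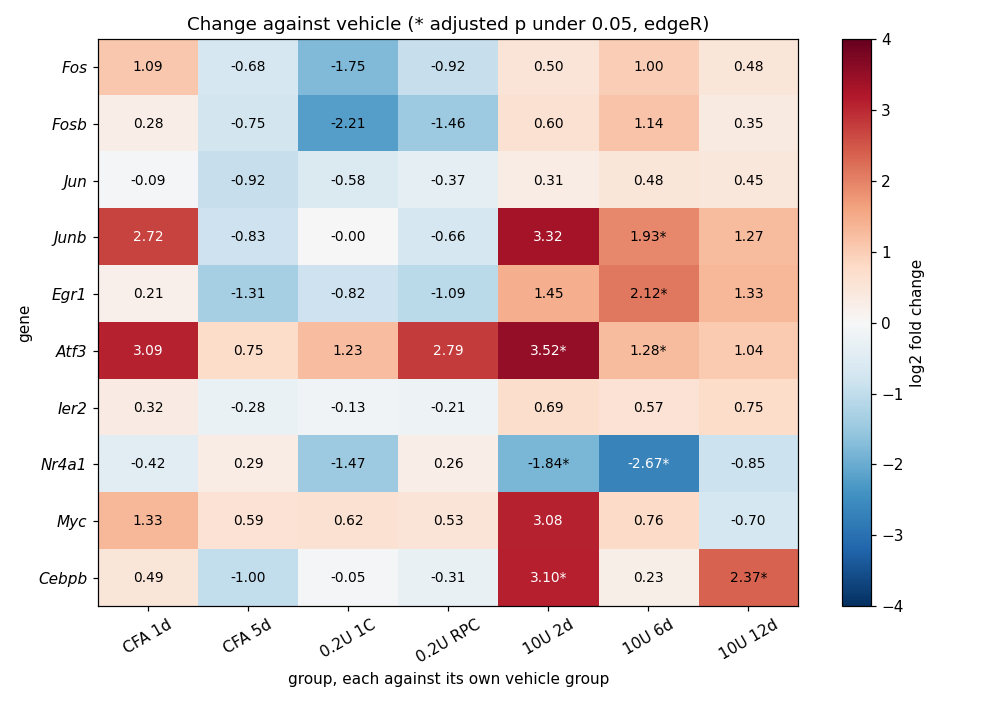
Log2 fold change of each member (rows) in the 7 treated groups (columns), each against its own vehicle group, in red where higher and blue where lower; an asterisk marks an adjusted p under 0.05 by edgeR. Atf3 is positive in all 7 columns, Nr4a1 is marked as lower at 2d and 6d after 10U Col, and Cebpb is marked as higher at 2d and 12d but not at 6d.

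At 6d after 10U Col, 4 members passed, Junb, Egr1 and Atf3 upward and Nr4a1 downward, where 14% of 14281 genes were called higher and 13.3% lower (27.3% in all). The background of change was thus wide in this comparison. Marker sums of cell types were apart from vehicle as well. At 6d skeletal muscle markers summed to 31138 to 55881 CPM (93299 to 135012 CPM in vehicle, 2 of 8 markers called lower), satellite cell markers to 371 to 474 CPM (108 to 141 CPM, 1 of 5 called higher) and fibroblast markers to 8331 to 13661 CPM (1200 to 5910 CPM, 1 of 6 called higher), and of the macrophage markers, whose sums are given above, 8 of 9 were called higher. No marker of these lists was at 0, and their part in the members' values was not tested. Nr4a1 was at 49.8, 42.3 and 86.7 CPM, against 339, 388 and 395 CPM in vehicle, a log2 fold change of -2.67 ± 0.31 (6.35-fold lower, n = 3 against 3, adjusted p 0.00292), and it passed in all 6 fits with a mouse removed. Junb had 58.5, 86.9 and 115 CPM against 12.9 to 33.2 CPM (1.93 ± 0.39, adjusted p 0.0143). Egr1, a zinc finger factor (99.0, 132 and 217 CPM), was above the 24.0, 14.4 and 61.3 CPM of vehicle in every mouse, with 2.12 ± 0.56 and an adjusted p of 0.0300. Atf3 was at 8.81, 16.5 and 15.8 CPM, well under its 2d level in 3 of 4 mice, and remained above vehicle (1.28 ± 0.35, adjusted p 0.0338). Jun, Ier2 and Myc did not overlap with vehicle either, at adjusted p values of 0.0802, 0.0737 and 0.0598, while 26% of all genes were apart upward. Without Contr mouse 3, the mouse with high Fosb, 6 members passed, now with Fosb (3.16 ± 0.56, adjusted p 0.00926) and Myc, while the share called over all genes rose to 41.5%. Only Nr4a1 passed without 6d mouse 2.

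At 6d, 15 of 93 tested genes of the other early lists were called higher and 13 lower (30.1% in all). This is near the share over all genes (14% higher, 13.3% lower, 27.3% in all). Within that background, Nr4a1 had a paralog that fell as well and Egr1 a paralog that rose. Of 8 tested paralogs of the zinc finger and nuclear receptor members, Egr3 rose at 6d (3.27 ± 0.68) and 3 fell, among them Nr4a2 (-1.54 ± 0.43) and the Krüppel-like factor Klf2 (-1.38 ± 0.28), with a median of -0.41 over the 8 and 0.0056 over all genes. Of 18 feedback inhibitors (median 0.52), 7 rose and 3 fell at 6d, with the MAP kinase phosphatases Dusp4 (2.25 ± 0.49) and Dusp2 (1.46 ± 0.37) and Zfp36l1 (1.35 ± 0.19), which degrades AU-rich transcripts, changing most. Among 9 partners and antagonists of Myc, Mycl1 rose by 2.47 ± 0.51 and Mxi1, which competes for Max, fell by 0.77 ± 0.18, 2 of 9 where 27.3% of all genes were called. At 2d, 6 of 94 tested genes of the other early lists (6.38%) had passed, all upward, beside the 1.14% of all genes called higher, namely Jund (1.41 ± 0.28), Klf10 (1.03 ± 0.19), Ier5 (1.82 ± 0.36), Btg1 (1.77 ± 0.36), Cebpd (1.77 ± 0.29) and the stress cytokine Gdf15 (6.22 ± 1.04).

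At 12d after 10U Col 1 member passed, where 0.762% of 14176 genes were called higher and 1.23% in all. This was Cebpb, with 104, 191, 147 and 92.5 CPM, all above the 16.0 to 38.2 CPM of vehicle, as 9.16% of all genes were (2.37 ± 0.36, 5.18-fold, adjusted p 0.0232). The call was lost in 4 of the 7 fits with a mouse removed (Contr mouse 1 or 12d mouse 1, 2 or 3), with adjusted p values up to 0.0827. Tmem189 was at 23.0 to 26.6 CPM in these mice, and mouse 1 and mouse 2 lay just below its lowest vehicle mouse. Myc was at 5.92, 6.79, 7.22 and 8.78 CPM, below every vehicle mouse (9.15 to 15.5 CPM), with -0.70 ± 0.26 and an adjusted p of 0.228, and groups apart downward were seen for 7.82% of genes. Junb was 28.5, 121, 32.8 and 30.5 CPM, and mouse 2 was also the highest in Fos (70.3 CPM), Egr1 (170 CPM), Ier2 (48.7 CPM), Jun (246 CPM), Nr4a1 (413 CPM) and Cebpb (191 CPM). Mouse 4 lay at the other end, with 11.1 CPM of Fos and 33.9 CPM of Nr4a1, and had a fibroblast marker sum of 13812 CPM, against 2740 to 4622 CPM in mice 1 to 3, and a skeletal muscle sum of 46462 CPM, against 89886 to 114312 CPM. The effect of this makeup on the members was not tested.

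Comparing the 10U days with each other removes the difference in counting. From 2d to 6d Cebpb fell by 2.86 ± 0.37 on the log2 scale, from 174 to 308 CPM down to 19.3, 29.1 and 45.2 CPM (adjusted p 0.00630), the 1 member of 10 that passed, where 4.05% of 14513 genes fell and 8.73% were called in all. From 6d to 12d it rose again by 2.12 ± 0.37 (adjusted p 0.0133), and Myc fell by 1.49 ± 0.18, from 16.9, 24.7 and 19.8 CPM (adjusted p 0.00767), 2 of 10 members where 13.4% of 14344 genes rose and 13% fell (26.4% in all). The levels of Cebpb thus went up, down and up over the labelled days, without overlap between neighbouring days, as 12.5% of all genes were apart downward from 2d to 6d and 17.6% upward from 6d to 12d. Tmem189 moved otherwise, falling from 6d to 12d by 0.69 ± 0.11 (adjusted p 0.0103). In these libraries 6d also had its own library names in the labels (MM_Co), and whether it was processed apart from the other days cannot be told from them. Myc and Atf3 had log2 changes of -2.31 ± 0.68 (adjusted p 0.0761) and -2.24 ± 0.66 (adjusted p 0.0755) from 2d to 6d. Without 2d mouse 4 they passed, with Junb and Cebpb, 4 members in all and all downward, against 28.8% of genes. Fos, Fosb, Jun, Egr1 and Ier2 did not pass in either setting, and the Egr1 levels at 6d (99.0 to 217 CPM) overlapped with those of mice 1 to 3 at 2d (97.2 to 153 CPM).

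**Figure D3:**
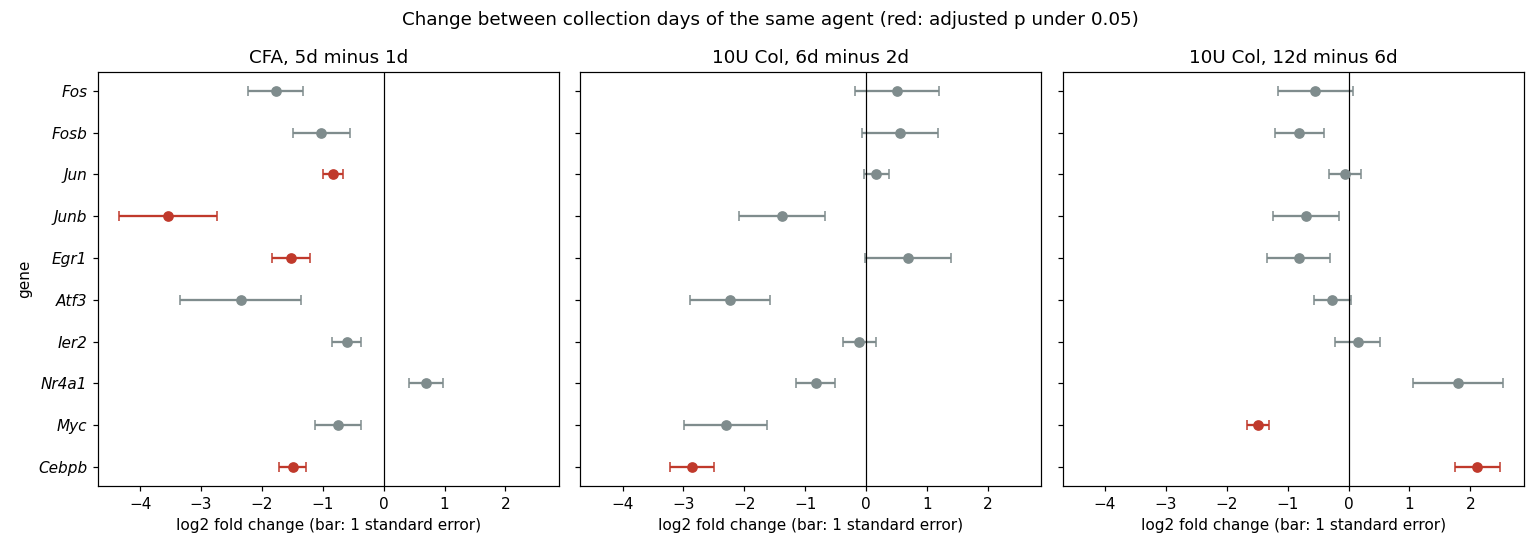
Log2 fold change between collection days of the same agent with 1 standard error, for 10 members, from edgeR fits of 3 against 3 mice (CFA) and of 3 and 4 mice (10U Col); red points have an adjusted p under 0.05. Cebpb is red in all 3 panels, falling from 1d to 5d after CFA and from 2d to 6d after Col and rising from 6d to 12d.

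Of 93 tested genes of the other early lists, 23 fell and 2 rose from 2d to 6d (26.9% in all). Of all genes, 4.05% fell and 8.73% were called in all. Of 9 partners and targets of Atf4, the factor of the integrated stress response, 5 fell, with Trib3 (-3.72 ± 0.80), Chac1 (-2.71 ± 0.43) and Asns (-2.44 ± 0.41) lowest, and of 8 heat shock genes 3 fell, Hspa1a (-5.23 ± 1.10), Hspa1b (-4.70 ± 0.99) and Hspb1 (-1.80 ± 0.41). Hspa1a and Hspa1b are near-identical copies, and reads they share can be missing from both counts. The medians were -1.42 for the Atf4 list and -1.06 for the heat shock list, beside -0.47 for the members and -0.036 for all genes. Of 16 serum and injury induced genes (median -0.81) 5 fell, Per1, a clock gene, by 2.11 ± 0.41 and Csrnp1 by 2.00 ± 0.46. Cebpd fell by 1.88 ± 0.41. Nr4a2 and Nr4a3, paralogs of Nr4a1, fell by 1.51 ± 0.32 and 2.31 ± 0.52.

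Whether CFA and 10U Col acted differently was tested as a difference of the changes, each against its own vehicle. For the early groups, 1d after CFA against 2d after Col, no member passed (0 of 10, against 0.0946% of 14794 genes by edgeR). The labelled days differ, whereas the study's text gives 1d for both groups. Cebpb had the smallest p, with a difference of -2.60 ± 0.55 (unadjusted p 0.000455, adjusted p 0.172 by edgeR). DESeq2 called it (adjusted p 0.00136), where 48 of 14794 genes were called higher and 60 lower. Cebpb measured 30.5 to 51.7 CPM after CFA and 174 to 308 CPM after Col, with like vehicle levels of 13.9 to 34.8 and 16.0 to 38.2 CPM. For 5d after CFA against 6d after Col, 4 of 10 members differed, against 11.3% of 14892 genes (6.96% with the higher and 4.34% with the lower change after CFA). Jun (-1.38 ± 0.24, adjusted p 0.00899), Junb (-2.75 ± 0.65, adjusted p 0.0239) and Egr1 (-3.43 ± 0.85, adjusted p 0.0276) had the lower change after CFA, and Nr4a1 (2.97 ± 0.49, adjusted p 0.00693) the higher. Jun, for example, was 86.3 to 103 CPM after CFA (vehicle 148 to 226 CPM) and 155 to 208 CPM after Col (vehicle 130 to 137 CPM). The vehicle groups enter these differences, and for Nr4a1 they were themselves apart (79.2 to 187 CPM for CFA, 339 to 395 CPM for Col). Salivary markers summed to 128188 to 160484 CPM at 5d after CFA and to 11.2 to 33.2 CPM at 6d after Col, and their part was not tested. The difference in counting between 10U libraries and their vehicle enters these values too.

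The order of the groups by mean level differed between members. Of 80 neighbouring positions in the orders of the 10 members, 4 were apart without overlap, 2 of them in Jun and 2 in Cebpb. Cebpb at 12d, second to 2d, stood above all lower groups. For Junb the order was 2d after 10U Col (230 ± 135 CPM, SD, n = 4), 1d after CFA (162 ± 140 CPM, n = 3) and 6d after Col (86.8 ± 28.3 CPM, n = 3), neighbours that overlapped. Nr4a1 was highest in C_RPC (443 ± 195 CPM, n = 4) and in the vehicle of Col (374 ± 30.4 CPM, n = 3), which overlapped, and lowest at 6d (59.6 ± 23.8 CPM, n = 3).

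Members also varied together among mice of the same group. With group means removed from log2 CPM, 29 of the 45 pairs of members had an adjusted permutation p under 0.05 over 31 mice (100000 permutations within groups, two-sided, adjusted over 45 pairs), and 44 of 45 coefficients were positive, with a median of r = 0.53. Fos and Egr1 were the closest pair (r = 0.85, adjusted permutation p 0.00075, Spearman's rho = 0.82, adjusted permutation p 0.000675), followed by Junb and Egr1 (r = 0.83, rho = 0.85, both with an adjusted permutation p of 0.00045, from the smallest p the permutations can give). Without the 2 mice farthest from the median of the first gene, r was 0.77 and 0.81. Cebpb and Myc stood aside from each other (r = 0.12, adjusted permutation p 0.575; rho = 0.06, adjusted permutation p 0.785), as did Nr4a1 and Myc (r = -0.13, adjusted permutation p 0.391; rho = -0.05, adjusted permutation p 0.794). Mouse 4 of the 2d group carries part of this, and without it 22 of 45 pairs passed, with a median of r = 0.47. In the 22 mice of the Col experiment alone 23 pairs passed. All values of a mouse come from 1 library and 1 dissection, which the members share. Pairs of other genes were not counted in this way. Whether the members vary together more than other genes do was therefore not tested.

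**Figure D4:**
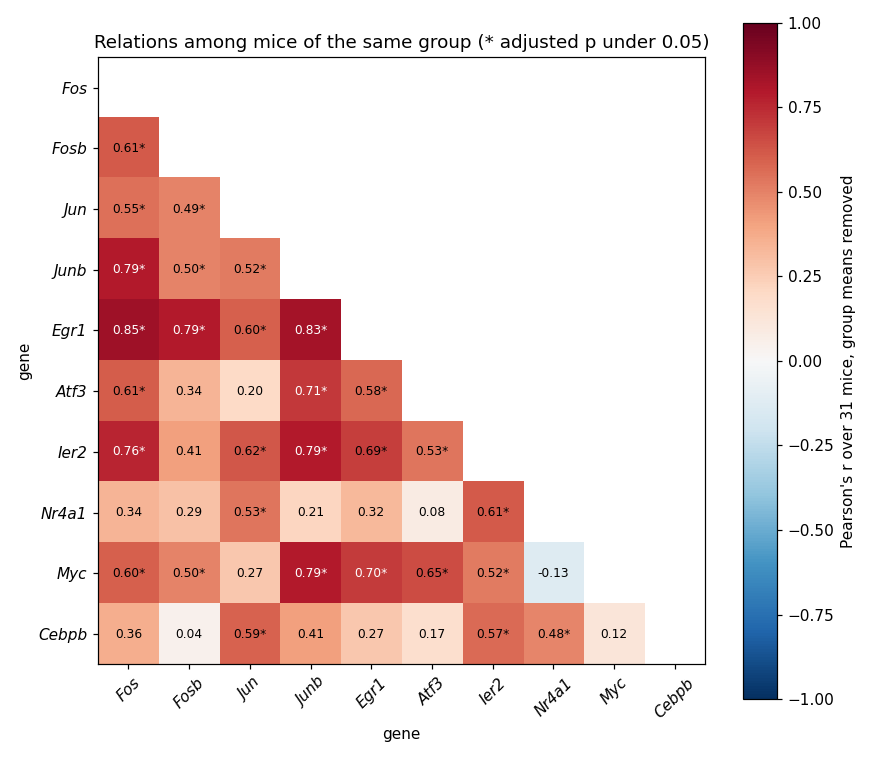
Pearson's r between members over 31 mice after removal of group means (log2 CPM), red for positive and blue for negative; an asterisk marks an adjusted permutation p under 0.05. Fos, Junb, Egr1 and Ier2 form pairs from 0.69 to 0.85, and the values of Nr4a1 and Cebpb with Myc are near 0.

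The genes outside the list whose deviations were most like those of a member are given as a description for 4 members, over 31 mice and 13165 genes compared. For Egr1 they were Apold1 (r = 0.89), an endothelial early response gene, Gpatch4 (r = 0.86) and Tspyl2 (r = 0.85). Atf3 was nearest to Ankrd2 (r = 0.90), a stretch-responsive muscle ankyrin repeat protein, Tnfrsf12a (r = 0.88), the receptor of TWEAK, and Srxn1 (r = 0.86), an antioxidant enzyme. Myc was nearest to Pa2g4 (r = 0.93), Odc1 (r = 0.93), the enzyme that starts polyamine synthesis, and Hnrnpab (r = 0.93). Cebpb was nearest to Fth1 (r = 0.82), the heavy chain of ferritin, Ino80b (r = 0.81) and Phlda3 (r = 0.79). These values share libraries and depth, and no p is given for them.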

How the data were processed

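Poly(A) RNA of masseter muscle was sequenced with stranded libraries and single-end reads of 50 bases, 1 library per mouse. The authors aligned reads to mm9 with TopHat2, and HTSeq is named in the submitters' processing notes, where its strand setting is not given. The deposited values are raw read counts per gene symbol, and the authors did not normalize or filter them. Lines of reads assigned to no gene were kept out of library sizes. No-feature reads were 6.69 to 22.5% of the sum of counted, no-feature and ambiguous reads. No pair of the 465 pairs of libraries was identical.

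Each comparison was fitted by edgeR 4.0.16 under R 4.3.3 (TMM, quasi-likelihood test, genes kept if 3 or more of its libraries had 10 or more counts, Benjamini-Hochberg adjustment over all genes tested, threshold 0.05). The standard error is the size of the log2 fold change over the root of its F value. Intervals use the t quantile at the total degrees of freedom of edgeR, which add prior to residual ones. RPKM and mm9 positions use exon lengths of GENCODE vM1, in which 21627 of 22609 symbols matched. Relations used log2 CPM with a prior count of 2. A count of 10 was 0.344 to 0.674 CPM, and its counting error covers sampling only. On simulated counts 198 of the tested genes were changed by 2 on the log2 scale, with the spread of the vehicle mice alone in both arms. For CFA at 1d (13485 genes) 157 were recovered and 14 of 171 calls were wrong. For 10U Col at 2d (13850 genes) 140 were recovered and 8 of 148 calls were wrong. The spread of the treated mice was not simulated, so these values do not give the recovery of the real comparisons.

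Members and gene lists were chosen with earlier results of these data known. Genes named beyond the members are at most the 3 with the largest change among those called in a list, and the 3 nearest patterns for 4 members; Tmem189, BC042782 and Gm17507 were named because the annotation places them over a member. Alternatives were DESeq2 1.42.0, its size factors, no filter, 1 fit of all libraries, a block for the replicate number, removal of each mouse, the thresholds of the study (fold over 2, RPKM over 1) and pooled vehicle groups. Same-numbered mice deviated together (every correlation over 0.1) for CFA at 1d with its vehicle (0.164 to 0.591) and between the vehicle groups (0.115 to 0.677); the labels do not say that a number marks a shared day.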

Additional observations from a re-analysis of the deposited data

Results flagged for a closer look

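Of 40 sets of 4 values (10 members in the 4 groups of 4 mice) tested for a value far from the rest by Dixon's criterion, 2 passed it, about the number that chance gives at 1 in 20. Junb in mouse 4 at 2d after 10U Col was 28.4 CPM, with 277 to 312 CPM in the other mice, and Junb in mouse 2 at 12d after 10U Col was 121 CPM, with 28.5 to 32.8 CPM in the others. The change at 5d after CFA minus the change at 6d after 10U Col passed edgeR's interaction test for 4 members, with -1.38 for Jun (adjusted p 0.00899), -2.75 for Junb (adjusted p 0.0239), -3.43 for Egr1 (adjusted p 0.0276) and 2.97 for Nr4a1 (adjusted p 0.00693). Jun and Nr4a1 passed in all 12 fits that left out 1 mouse, and Junb and Egr1 in 7 of 12.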

How the results depend on the processing

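Of 1690 values of single members under an alternative, 1571 kept their side of the threshold, 57 passed it and 62 lost it. Of the 1571, 50 changed sign, none of them called in either fit, and no called value changed sign. Counts that moved by over 1.5 times were as follows. DESeq2 gave 2 for CFA at 5d, 2 for C_1C, 1 for C_RPC and 5 for 10U at 2d. It gave 3 for 6d against 2d, 1 for CFA vehicle against Contr and 1 for the early difference between agents. Its other counts were 6 at 6d, 5 for CFA 5d against 1d, 3 for 12d against 6d, 5 for the late difference, and unmoved elsewhere. DESeq2 called more of all genes than edgeR in each comparison. At 6d it called 2441 higher and 2645 lower of 14281, where edgeR called 1994 and 1906. For 6d against 2d it called 1280 and 1427 of 14513, and for CFA 5d against 1d 949 and 535 of 14046. For 12d against 6d it called 2813 and 2562 of 14344, and for the late difference 1515 and 1249 of 14892. The fit of all 31 libraries gave 5 at 2d, 2 at 6d, 2 for CFA 5d against 1d, 2 for 6d against 2d and 1 for the early difference. Of 15526 genes it called 2394 higher and 2549 lower at 2d, where the main fit called 164 and 155 of 14373. At 6d it called 2424 and 2609, and for CFA 5d against 1d 287 and 352. For 6d against 2d it called 966 and 844, and for the early difference 52 and 45. The replicate block gave 7 at 2d, 2 for CFA 5d against 1d and 4 for 6d against 2d. At 2d it called 2317 genes higher and 2183 lower of 14373. For CFA 5d against 1d it called 619 and 116 of 14046, and for 6d against 2d 1042 and 1166 of 14513. Mouse 4 at 2d has no same-numbered partner in these fits, and the numbers do not pair these samples. Same-numbered mice deviated together (every correlation over 0.1) for CFA at 1d with its vehicle and between the vehicle groups, and there the block left the count at 0. A mouse was closest to its own number in 2 of 3 cases for the former and 1 of 3 for the latter, so a pairing is not established. Pooled vehicles gave 6 at 2d, where 2596 genes were called higher and 2447 lower of 14663. The larger member counts at 2d thus came with larger counts over all genes. DESeq2's size factors, no filter and the thresholds of the study kept every count within 1.5 times.

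With each mouse left out in turn the counts were 0 to 4 for CFA at 5d, 0 to 1 for C_1C, 0 to 7 for 10U at 2d, 1 to 6 at 6d, 0 to 2 at 12d, 0 to 8 for CFA 5d against 1d, 0 to 4 for 6d against 2d, 1 to 3 for 12d against 6d, and 2 to 5 for the late difference between agents, and 0 elsewhere. At 2d the calls over all genes moved too, from 10 higher and 2 lower without mouse 2 to 2538 higher and 2605 lower without mouse 4. An arm left with 2 mice rests on the spread of both. The fits named without 2d mouse 4, CFA mouse 2 at 1d, Contr mouse 3 or vehicle mouse 3 of CFA were picked out after seeing the data. Relations without 2d mouse 4, also chosen after seeing the data, gave 22 of 45 pairs. The cause of these shifts was not tested.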
